A study of Mus musculus with 8 samples.

Results

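Differentiating oligodendrocyte precursors are the cells that have left the precursor pool but do not yet make compact myelin, and here they were studied in nuclei from the hippocampus of mouse pups on postnatal day 21. A nucleus was taken as a member when at least 3 of the 7 genes Bmp4, Enpp6, Bcas1, Bcas1os2, Gpr17, Neu4 and 9630013A20Rik had 1 or more UMI (unique molecular identifier, the count of 1 captured RNA molecule). Slc17a7 plus Gad2 (neurons) had to stay at 1 UMI or less, as did Csf1r plus Aqp4 (microglia and astrocytes) and Mog (mature oligodendrocytes). In all, 445 of 11518 retained nuclei met this rule. Since measured RNA chose the members, their levels of these genes are given as a description with no test.

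The study compared pups of wild-type C57BL/6J dams, 8 weeks old, that were fed folic acid (FA) at 2 mg/kg (the control diet, MF) or at 20 mg/kg (the excess diet, HF). Dams received the diet for 2 weeks before mating and through pregnancy and lactation, and the study's methods describe the pups as male. The multiome assay of 10x Genomics, which reads the RNA and the open chromatin (ATAC) of each nucleus together, was run on 2 libraries per diet, named MF1, MF2, HF1 and HF2 here. The number of pups or litters in a library is not given in the sources used here, so p-values between diets measure only the spread between these 4 libraries, which may be partly technical.

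Oligodendrocyte precursors divide, carry the growth factor receptor Pdgfra and the proteoglycan Cspg4 (NG2), and persist in the brain into adulthood. When a precursor commits to differentiation it leaves the cell cycle, loses Pdgfra and passes through a short stage marked by Bmp4, Gpr17, Bcas1 and Enpp6, before it turns on the genes for myelin proteins and lipids. The transcription factors Olig2, Sox10, Nkx2-2, Tcf7l2 and Myrf act along this path, and BMP and Wnt signals are known to slow it.

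MF1 held 109 members, MF2 100, HF1 145 and HF2 91. They were compared with 337 Pdgfra nuclei (2 or more Pdgfra UMIs, no member) and 760 Mog nuclei (2 or more Mog UMIs). Both sets were under the same exclusion of neurons, microglia and astrocytes. Neither set was cleanly separated from the members. Of the Pdgfra nuclei 135 had exactly 2 rule genes, and 112 members had 2 or more Pdgfra UMIs. The limit on Mog kept 323 nuclei with enough rule genes out of the members. Those of them that passed the other exclusions are among the Mog nuclei, and their number is not given here. The retained nuclei gave 20151562 to 29243072 UMIs per library, and the members' summed UMIs were 494566 and 502493 in the MF libraries and 641742 and 448408 in the HF libraries. The median member had 3920 UMIs, 1985 genes and 15649 ATAC counts, against a median of 3319 UMIs in Pdgfra nuclei and 5167.5 in Mog nuclei. A doublet score above 0.05 was given to 9.21% of members, 9.50% of Pdgfra nuclei, 15.1% of Mog nuclei and 15.3% of all retained nuclei. Between libraries 76 barcodes of retained nuclei occurred in a pair of libraries, 6 of them on a member, and no barcode was a member in more than 1 library.

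The results below turn on accessible regions at Bmp4, Enpp6, Fyn, Tnr and Myrf. For these genes the sequence of 300 bases around the middle of the region is printed from RefSeq GRCm38.p6 (mm10), plus strand, and for Bmp4 the 250 bases before the RefSeq start on its own, minus strand. Capitals mark matches to ACAAAG (SOX factors), CAGCTG (an E-box, read by bHLH factors such as OLIG2), CTTTGA (TCF/LEF factors) or CTGGNAC (MYRF), searched on both strands. A match is a description of the letters, not a bound site.
Bmp4 promoter, chr14:46390670-46390919: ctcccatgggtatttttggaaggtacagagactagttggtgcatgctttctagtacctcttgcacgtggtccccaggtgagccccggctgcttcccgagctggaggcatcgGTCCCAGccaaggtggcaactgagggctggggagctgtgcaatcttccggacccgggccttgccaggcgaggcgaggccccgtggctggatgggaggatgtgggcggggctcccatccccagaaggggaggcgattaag
Enpp6 intron, chr8:46988492-46988791: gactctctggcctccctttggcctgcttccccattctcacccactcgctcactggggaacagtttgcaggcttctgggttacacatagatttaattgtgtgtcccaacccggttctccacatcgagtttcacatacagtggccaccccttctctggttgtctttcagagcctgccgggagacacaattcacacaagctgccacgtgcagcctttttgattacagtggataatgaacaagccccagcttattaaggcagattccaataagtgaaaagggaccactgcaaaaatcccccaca
Fyn intron, chr10:39421861-39422160: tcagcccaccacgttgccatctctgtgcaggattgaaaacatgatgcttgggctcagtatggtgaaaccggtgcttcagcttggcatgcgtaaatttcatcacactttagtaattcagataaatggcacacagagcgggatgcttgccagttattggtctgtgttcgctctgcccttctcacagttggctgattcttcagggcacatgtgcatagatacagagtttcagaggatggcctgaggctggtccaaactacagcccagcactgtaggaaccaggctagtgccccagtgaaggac
Tnr intron, chr1:159588040-159588339: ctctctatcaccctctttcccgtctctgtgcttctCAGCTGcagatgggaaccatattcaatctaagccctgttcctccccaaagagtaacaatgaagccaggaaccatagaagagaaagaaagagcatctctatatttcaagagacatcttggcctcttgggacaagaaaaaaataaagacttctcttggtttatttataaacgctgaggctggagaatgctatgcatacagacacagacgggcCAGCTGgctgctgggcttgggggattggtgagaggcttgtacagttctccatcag
Myrf upstream, chr19:10243021-10243320: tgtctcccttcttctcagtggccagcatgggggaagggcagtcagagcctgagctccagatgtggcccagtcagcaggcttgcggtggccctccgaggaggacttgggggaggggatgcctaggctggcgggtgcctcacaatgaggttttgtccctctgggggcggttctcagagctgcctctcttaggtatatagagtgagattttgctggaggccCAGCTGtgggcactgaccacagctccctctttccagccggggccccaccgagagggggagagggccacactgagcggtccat
The Tnr window held 2 E-boxes and the Myrf window 1, the Bmp4 promoter held 1 CTGGNAC match on the reverse strand, and the Enpp6 and Fyn windows held no match to these 4 motifs. Over all 51866 tested regions, 23.1% held ACAAAG, 27.1% CAGCTG, 15.6% CTTTGA and 22.9% CTGGNAC in the same 300 bases. Of 32851 RefSeq promoters, 16.1% held CTGGNAC in the 250 bases before the start.

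The genes of the rule were detected in 42.7% to 96.9% of members. Bcas1, which encodes a protein of early myelinating cells, had a UMI in 96.9% of members, 42.1% of Pdgfra nuclei and 88.2% of Mog nuclei. Enpp6, a choline phosphodiesterase, had a UMI in 54.2% of members, 0.297% of Pdgfra nuclei and 38.2% of Mog nuclei. Bmp4, a secreted BMP ligand, had a UMI in 42.7% of members, 2.37% of Pdgfra nuclei and 1.97% of Mog nuclei. Gpr17, an orphan G protein-coupled receptor that holds back maturation, had a UMI in 76.0% of members, and Neu4, a sialidase, in 63.4%. The long noncoding RNA 9630013A20Rik had a UMI in 78.7% of members, and Bcas1os2, transcribed opposite to Bcas1, in 66.5%. Because the strand setting of the counting is not given in the sources used here, Bcas1 and Bcas1os2 may share reads.

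As a measure of free RNA, nuclei of other types were read in the same way. Bmp4 had a UMI in 2.04% of 4173 neuronal nuclei (median 13022 UMIs) and in 1.85% of 810 microglial nuclei (median 2082 UMIs), and Enpp6 in 4.72% and 4.07%. 9630013A20Rik reached 16.8% of neuronal nuclei at their own depth and 3.60% after every nucleus was thinned to 2000 UMIs, against 68.5% of the 428 members deep enough for thinning. Thinned to the same depth, Bmp4 had a UMI in 32.7% of members, 1.57% of Pdgfra nuclei, 1.33% of Mog nuclei, 1.82% of the 439 microglial nuclei deep enough and 0.432% of neuronal nuclei, and Enpp6 in 48.4% of members.

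Levels are given as CPM, a gene's UMIs summed over the nuclei of a set in a library, divided by all UMIs of those nuclei and scaled to a total of 1000000, and are listed in the order MF1, MF2, HF1 and HF2. Bmp4 stood at 245 and 197 CPM in the members of MF1 and MF2 and at 274 and 156 in those of HF1 and HF2, a mean of 218 ± 52.1 (SD, n = 4 libraries) against 5.98 in Pdgfra nuclei and 8.09 in Mog nuclei. Enpp6 stood at 580, 585, 626 and 493 CPM, a mean of 571 ± 56.2, against 136 in Mog nuclei and a total of 1 UMI in all Pdgfra nuclei. Bcas1 stood at 2087, 1881, 2534 and 1844 CPM, a mean of 2086 ± 317, against 197 in Pdgfra nuclei and 582 in Mog nuclei. In each library these genes were highest in the members, and the members' ranges did not overlap with those of the other nuclei.
Gpr17 had 493, 346, 407 and 279 CPM in members, with means of 124 in Pdgfra nuclei and 23.5 in Mog nuclei. Neu4 had 243, 191, 273 and 169 CPM, with means of 79.4 and 8.64. 9630013A20Rik had 2540, 3037, 2778 and 2286 CPM, with means of 46.0 and 899. The rule keeps most nuclei with these genes out of the Pdgfra set, so the low levels there are partly set by it. It does not keep them out of the Mog set, whose levels include such nuclei.

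**Figure D1:**
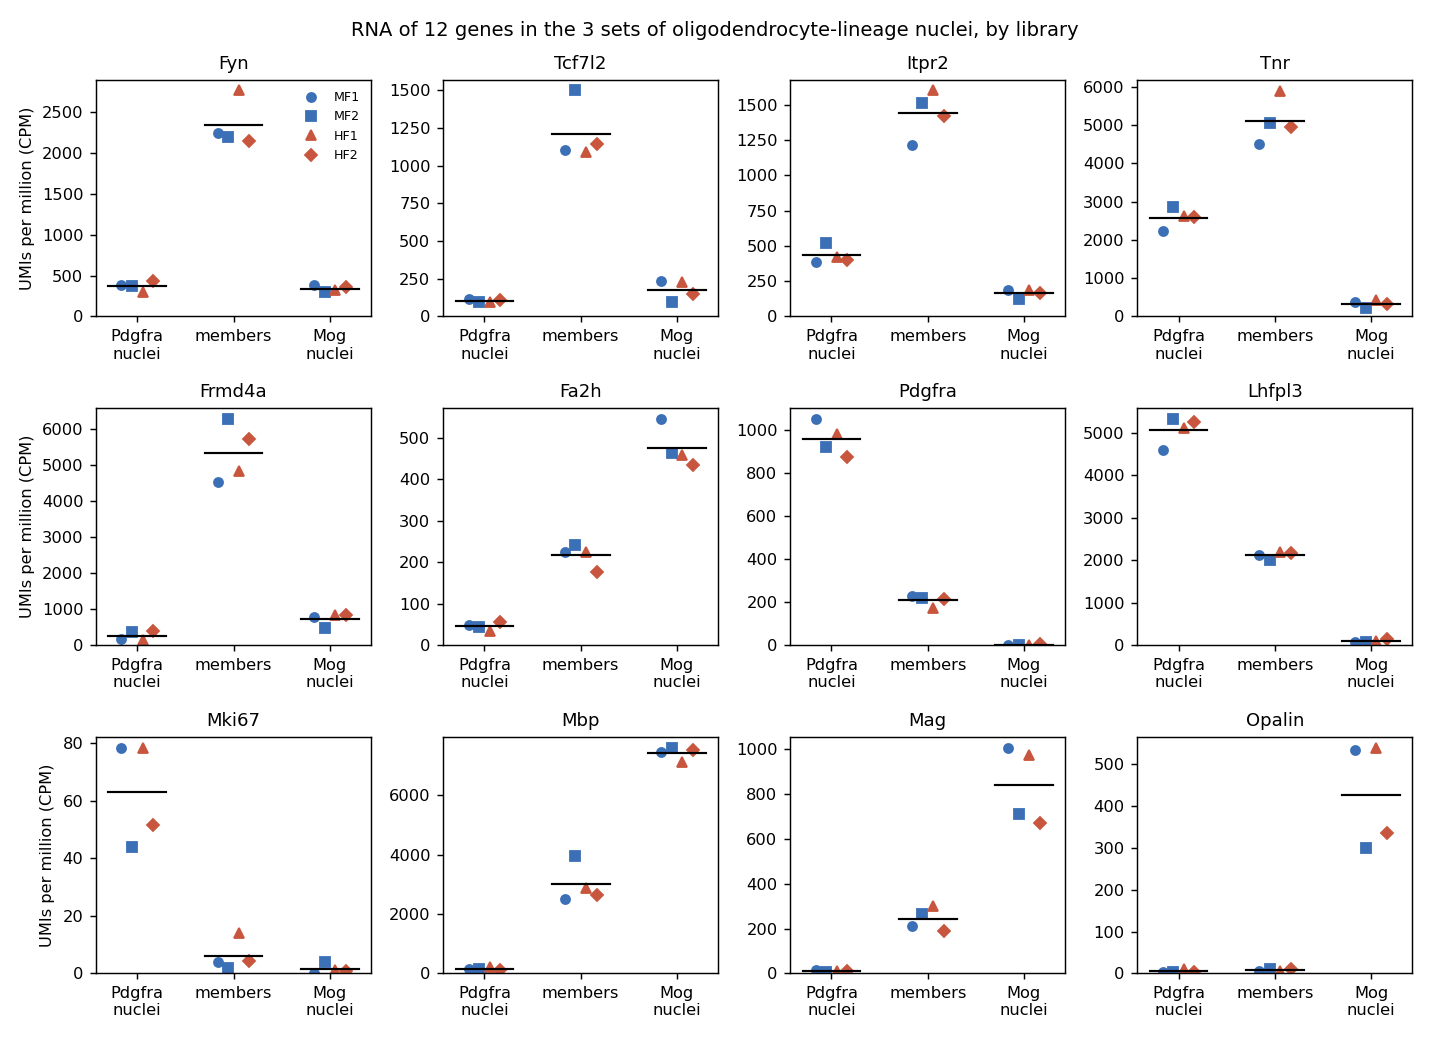
RNA levels of 12 genes in CPM of UMIs (linear axis from 0) for Pdgfra nuclei, members and Mog nuclei, with 1 point per library (blue MF, red HF) and a line at the mean. In the Fyn panel members lie between 2143 and 2766 CPM in every library, and the other sets at 431 CPM or below.

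The label was checked with genes that the rule did not use. These genes were chosen with earlier results of these data known, so the check is not independent. Fyn, a kinase that drives process growth and Mbp translation, had 2244, 2193, 2766 and 2143 CPM in the members of MF1, MF2, HF1 and HF2, 296 to 431 in Pdgfra nuclei and 296 to 383 in Mog nuclei. Tcf7l2, a Wnt-pathway transcription factor needed for differentiation, had 1104, 1501, 1091 and 1144 CPM in members, 98.2 to 113 in Pdgfra nuclei and 94.0 to 236 in Mog nuclei. Itpr2, the calcium release channel for which a group of newly formed oligodendrocytes is named, had 1215, 1512, 1603 and 1423 CPM, against 388 to 522 and 125 to 188. All 3 were higher in members than in either neighbour in 4 of 4 libraries. Rras2, Tmem163 and Zfp488, other genes of this stage, had member means of 285, 754 and 72.7 CPM and were likewise above both neighbours, though Rras2 had 879 CPM in the 100 members with Enpp6 and no Bmp4 UMI and 42.7 to 57.9 in the others, below the Mog nuclei mean of 130. Nkx2-2 was above both neighbours too, but Myrf was above Pdgfra nuclei only and overlapped with Mog nuclei, as given below. Of 30 described genes on the full list of this stage, 16 were higher than in Mog nuclei and 2 lower. The pan-lineage factors Olig2 and Sox10 had 131 and 319 CPM in members, against 136 and 234 in Pdgfra nuclei and 57.4 and 170 in Mog nuclei. Opalin, a gene of mature oligodendrocytes, stood at 7.96 CPM in members and 427 in Mog nuclei. Mag, Mobp and Cldn11, also genes of mature oligodendrocytes, were lower than in Mog nuclei but higher than in Pdgfra nuclei, each by 2-fold or more. For the 155 members with neither a Bmp4 nor an Enpp6 UMI the genes went against the label, with Tcf7l2 at 117 CPM, Frmd4a at 236 and Pdgfra at 551. The 49 members with Bmp4 only had Tcf7l2 at 224 CPM and Frmd4a at 296, with Fyn at 1689. The label was therefore kept for the members with an Enpp6 UMI, and the whole set is called members, by its rule.

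The name "Bmp4-Enpp6 stage" held for fewer nuclei than the rule admits. Bmp4 or Enpp6 had a UMI in 290 members (65.2%), while 155 members had neither and entered through the other 5 genes. A Pdgfra UMI was present in 151 members (33.9%) and a Mog UMI in 47 (10.6%). The 128 members with exactly 3 rule genes, just inside the threshold, had Bmp4 at 37.1 CPM and a Pdgfra UMI in 75.0% of nuclei, and the 222 nuclei with exactly 2 rule genes, just outside it, had Bmp4 at 13.3 CPM and a Pdgfra UMI in 76.1%. The share with a Pdgfra UMI was 51.9% among the 77 members with 4 rule genes, 15.0% with 5, 3.57% with 6 and 0 of the 76 members with 7, where a count of 0 allows up to 3.95%. Of the 924 nuclei with 3 or more rule genes, 479 were left out by the exclusions, 211 of them by the neuronal genes, 65 by Csf1r and Aqp4 and 323 by Mog, with some left out by more than 1 of these.

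Markers of other cell types were read as summed levels. The neuronal, microglial and astrocyte lists include the exclusion genes Slc17a7, Gad2, Csf1r and Aqp4. The rule held these genes low in members, so the sums are partly set by it. Over 10 excitatory neuron genes the summed level was 1128 CPM in members and 3741 in all retained nuclei, over 10 microglial genes 125 and 420, and over 10 vascular genes 11.5 and 48.8. Astrocyte genes summed to 628 CPM in members, 1334 in Pdgfra nuclei and 1585 in all nuclei. Inhibitory neuron genes summed to 972 CPM in members, 1006 in all retained nuclei, 1574 in Pdgfra nuclei and 229 in Mog nuclei. The erythroid genes summed to 1779 and 2961 CPM in the members of MF1 and MF2 and to 363 and 408 in those of HF1 and HF2, a mean of 1378 against 759 in all retained nuclei. Their part in the results was not tested, except where stated beside the haemoglobin genes.

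The mean CPM of members differed from that of Pdgfra nuclei by 2-fold or more, in the same direction in 4 of 4 libraries, at 471 genes in the higher direction (7.01% of 6718 described genes) and at 319 in the lower direction (4.75%). Against Mog nuclei 874 of 9184 genes were higher (9.52%) and 787 lower (8.57%). In what follows a listed gene is counted as higher or lower by this rule, a description with no test because RNA chose the nuclei. A gene was described if the higher set had at least 50 UMIs, so it could enter through the set where it is high.

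Pdgfra itself had 226, 217, 173 and 214 CPM in members, against 876 to 1051 in Pdgfra nuclei, which were chosen by it. Of the 20 progenitor genes in the list 7 were lower than in Pdgfra nuclei, with a median log2 ratio of -0.96, and 20 of 20 were higher than in Mog nuclei, with a median of 3.79. Lhfpl3 stood at 2117, 1998, 2199 and 2172 CPM in members, against means of 5072 in Pdgfra nuclei and 91.2 in Mog nuclei. These means cover unlike nuclei, since members with neither Bmp4 nor Enpp6 had 551 CPM of Pdgfra and 4568 of Lhfpl3, and those with both 8.52 and 969. Cspg4 had means of 395, 150 and 4.74 CPM in Pdgfra nuclei, members and Mog nuclei. Vcan, a matrix proteoglycan, and Sox6, a transcription factor of precursors, were near their Pdgfra-nucleus level, with log2 ratios of -0.05 and 0.27, and were above Mog nuclei by 4.85 and 4.59.

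Genes of the cell cycle were low in members. Mki67 had 4.04, 1.99, 14 and 4.46 CPM in members against 78.2, 44.0, 78.3 and 51.5 in Pdgfra nuclei, and the ranges did not overlap. Top2a and Cenpf had means of 17.9 and 4.40 CPM against 101 and 41.3. The Top2a mean covers unlike libraries, with 6.07, 0, 39.0 and 26.8 CPM in members, from 3, 0, 25 and 12 UMIs. Its diet difference was not called (edgeR FDR 0.999). Of 31 listed cell cycle genes only 9 had enough UMIs to be described. Of these, 8 were lower than in Pdgfra nuclei, with a median log2 ratio of -2.49. Genes could pass this minimum through Pdgfra nuclei alone, so the count and the median are partly set by it.

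Of 29 described genes on the list of the differentiating stage, 27 were higher in members than in Pdgfra nuclei, with a median log2 ratio of 2.66. The list was chosen with earlier results of these data known, so this count is no independent check of the stage. The 1 lower gene, Samd4, had 69.1 CPM in members against 191 in Pdgfra nuclei. Against Mog nuclei 16 of 30 were higher and 2, Ugt8a and 1700047M11Rik, lower. Frmd4a, a scaffold protein of cell polarity, had 4539, 6275, 4824 and 5718 CPM in members, 139 to 377 in Pdgfra nuclei and 471 to 845 in Mog nuclei. Kif19a, a kinesin, had 86.9, 81.6, 101 and 82.5 CPM in members, 19.3 to 31.7 in Mog nuclei and no UMI in Pdgfra nuclei, which put it at least 38.8-fold higher, with the floor set at 3 counts over all Pdgfra nuclei. Chn2, a Rac GTPase-activating protein, had means of 62.0, 680 and 242 CPM in Pdgfra nuclei, members and Mog nuclei. Tnr, the matrix protein tenascin-R, had 4509, 5071, 5904 and 4964 CPM in members, a log2 ratio of 0.99 to Pdgfra nuclei, just short of the 2-fold mark, and 3.95 to Mog nuclei.

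The genes with the largest ratio to Pdgfra nuclei, on the lists or outside them, included St18, a zinc finger factor, with 1219, 1654, 1766 and 1690 CPM in members against means of 14.9 in Pdgfra nuclei and 3628 in Mog nuclei. Cnksr3, a scaffold of the Raf pathway, had means of 14.9, 681 and 288 CPM. The noncoding transcripts 9530059O14Rik (27.6, 1241 and 507 CPM) and Gm36988 (5.21, 208 and 20.9 CPM) were highest in members of the 3 sets. Against Mog nuclei the largest ratios belonged to genes that Pdgfra nuclei held at higher levels still, such as Stk32a (360, 172 and 2.99 CPM), Cacng4 (413, 209 and 6.05 CPM), C1ql1 (273, 142 and 4.06 CPM) and Ntn1, the guidance cue netrin 1 (145, 54.9 and 1.27 CPM). Prr5l, a regulator of mTORC2, was on the low side, with 2.33, 9.88 and 762 CPM, as was the myelin proteolipid Mal with 41.0, 45.6 and 1633 CPM. Of the genes lowest against Pdgfra nuclei, Apod and Colec12 depended on 11 Pdgfra nuclei with fibroblast collagen RNA, without which their log2 ratios were 0.05 and 1.04 instead of below 0.

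Averaged over all members, some myelin genes were partly on. These means cover unlike nuclei, since Mbp and Mag were far lower in members without an Enpp6 UMI than in those with Enpp6 only, as given below. Mbp, the myelin basic protein gene, had 2509, 3964, 2878 and 2645 CPM in members, 99.8 to 212 in Pdgfra nuclei and 7110 to 7601 in Mog nuclei. Mag, the myelin-associated glycoprotein gene, had means of 11.1, 242 and 840 CPM. Of 25 listed myelin genes only 15 had enough UMIs to be described against Pdgfra nuclei. Of these, 11 were higher in members and 1, Apod, lower, a count partly set by the minimum, which a gene could pass through members alone. Against Mog nuclei all 25 were described, with 23 lower in members and none higher. Other myelin genes stayed near the Pdgfra-nucleus level. Opalin stood at 5.23 and 7.96 CPM in Pdgfra nuclei and members, Ermn at 10.3 and 16.3, Aspa, the N-acetylaspartate hydrolase, at 7.56 and 8.96 and Mal at 41.0 and 45.6, while in Mog nuclei they reached 427, 239, 465 and 1633. Mog, at 22.6 CPM, was held low by the rule.

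Of 25 described lineage transcription factors, 6 were higher than in Pdgfra nuclei (Nkx2-2, Myrf, Zfp488, Tcf7l2, St18 and Zeb2) and 5 lower (Hes5, Id2, Etv5, Etv4 and Prrx1). Myrf, the master regulator of myelin genes, had 93.0, 87.6, 81 and 69.1 CPM in members, which overlapped with 86.3 to 141 in Mog nuclei, and 0 to 9.66 in Pdgfra nuclei. Nkx2-2 had 111, 51.7, 120 and 53.5 CPM in members, higher in MF1 and HF1 than in MF2 and HF2, against 25.8 to 49.3 in Pdgfra nuclei and 6.44 to 25.5 in Mog nuclei. Hes5 and Id2, inhibitors of differentiation downstream of Notch and BMP, had 19.0 and 23.2 CPM in members and 45.5 and 49.9 in Pdgfra nuclei. Olig1 had 158 CPM in members, 305 in Pdgfra nuclei and 161 in Mog nuclei.

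Of 16 described genes of the BMP pathway, 4 were higher than in Pdgfra nuclei, and 1 of these, Bmp4, is a rule gene. The others were Smad7, Smurf1 and Zeb2, which are known to restrain BMP or TGF-beta signalling. Smad6 and Smurf2 on the same list were not counted as higher, and Bmp7 and Id2 were lower. Smad7, the inhibitory SMAD, had means of 24.0, 112 and 337 CPM in Pdgfra nuclei, members and Mog nuclei, and Smurf1, a ubiquitin ligase for SMADs, 30.4, 117 and 155. The ligand Bmp7 had 55.9, 15.8 and 0.345 CPM. The receptor Bmpr1a had 151, 116 and 124 CPM and the signal carrier Smad1 46.7, 71.9 and 37.7, with neither past 2-fold. In the Wnt pathway, Tcf7l1, a mostly repressive TCF factor, had 21.3, 130 and 54.1 CPM, the target Axin2 14.2, 15.5 and 5.74, and Ccnd1, cyclin D1, 64.9, 27.2 and 5.13. Of 14 described Wnt genes 2 were higher and 1 lower than in Pdgfra nuclei.

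Of 24 described genes of lipid and cholesterol synthesis 13 were higher than in Pdgfra nuclei and none lower, with a median log2 ratio of 1.10, and none of 29 was higher than in Mog nuclei and 5 were lower. Fa2h and Ugt8a, which make the galactolipids of myelin, had means of 217 and 483 CPM in members, between 45.5 and 136 in Pdgfra nuclei and 476 and 1021 in Mog nuclei. Elovl7, a fatty acid elongase, had means of 24.0, 292 and 409 CPM.

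None of 27 described genes for glutamate and GABA receptors was higher than in Pdgfra nuclei and 3 were lower, with a median log2 ratio of -0.51, and 9 were higher and 2, Grm3 and Gabbr1, lower than in Mog nuclei. The AMPA receptor subunit Gria2 had means of 1832, 1764 and 543 CPM in Pdgfra nuclei, members and Mog nuclei, and the NMDA receptor subunit Grin3a 509, 291 and 22.9. The Grin3a mean covers unlike nuclei, with 613 CPM in members with neither Bmp4 nor Enpp6 and 46.1 in those with Enpp6 only. Grik1 and Gabra3 were among those lower, with 160 against 439 and 41.4 against 95 CPM.
On the list of actin and process growth 8 of 29 genes were higher than in Pdgfra nuclei and none lower. Arhgap35, a GTPase-activating protein and Fyn substrate, had means of 273, 661 and 154 CPM, and the tubulin Tubb4a 51.3, 297 and 607. The actin-severing protein gene Gsn, which is high in mature oligodendrocytes, had 25.9 CPM in members and 441 in Mog nuclei.
For genes of folate and one-carbon metabolism, the pathway the diet feeds, 1 of 13 described genes, Gart of purine synthesis, was higher than in Pdgfra nuclei (28.5 against 11.9 CPM), and the list's median log2 ratio was 0.03. The folate receptor gene Folr1 had no UMI among the 2087209 UMIs of members, which allows up to 1.44 CPM.

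The members were not uniform, and the levels of many genes differed with the detection of Bmp4 and Enpp6. Split by whether a UMI of each was present, 155 members (34.8%) had neither, 49 (11%) Bmp4 only, 141 (31.7%) both and 100 (22.5%) Enpp6 only. This split was chosen after values were seen and is described with no test, and the median depth differed along it, at 3523, 3466, 4136 and 5581.5 UMIs. The part of depth in the split was not tested. A Pdgfra UMI was present in 78.7%, 44.9%, 2.13% and 4% of these nuclei, and a Mog UMI in 2.58%, 6.12%, 12.1% and 23.0%. Pdgfra had 551, 259, 8.52 and 27.1 CPM in the same order, Lhfpl3 4568, 2773, 969 and 486 and Grin3a 613, 469, 120 and 46.1. Pdgfra, Lhfpl3 and Grin3a were thus highest where neither gene was seen.

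A set of genes was highest in the nuclei with both Bmp4 and Enpp6. In the order neither, Bmp4 only, both and Enpp6 only, Fyn had 571, 1689, 4224 and 2456 CPM, and in nuclei with both it was 4406, 4184, 4445 and 3861 by library. Tnr had 3294, 4625, 7681 and 4547 CPM, Cd9, a tetraspanin, 374, 568, 1122 and 389, and Chn2 77.1, 318, 1436 and 684. Gpr17 had 308, 402, 587 and 234 CPM, and Bcas1 672, 1483, 3598 and 2210, though these are rule genes. Nkx2-2 was at 122 and 137 CPM in both Bmp4 groups and at 61.1 and 37.2 in the others.

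A further set was highest in the nuclei with Enpp6 only. Rras2, a small GTPase, had 42.7, 54.3, 57.9 and 879 CPM, and by library 690, 928, 720 and 1179 with Enpp6 only against 13.6, 94.3, 55.0 and 68.6 with both. Cnksr3 had 66.9, 35.7, 288 and 1998 CPM and the mannosidase gene Man1a 69.9, 66.2, 42.3 and 496. Tcf7l2 had 117, 224, 1185 and 2802 CPM, Frmd4a 236, 296, 7168 and 10978, and Mbp 334, 233, 2713 and 7267. Mag had 41.0, 19.5, 180 and 616 CPM and Smad7 40.5, 52.7, 72.9 and 258. Cntn1, an adhesion molecule, went down and up again, with 1355, 867, 457 and 2740 CPM.

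**Figure D2:**
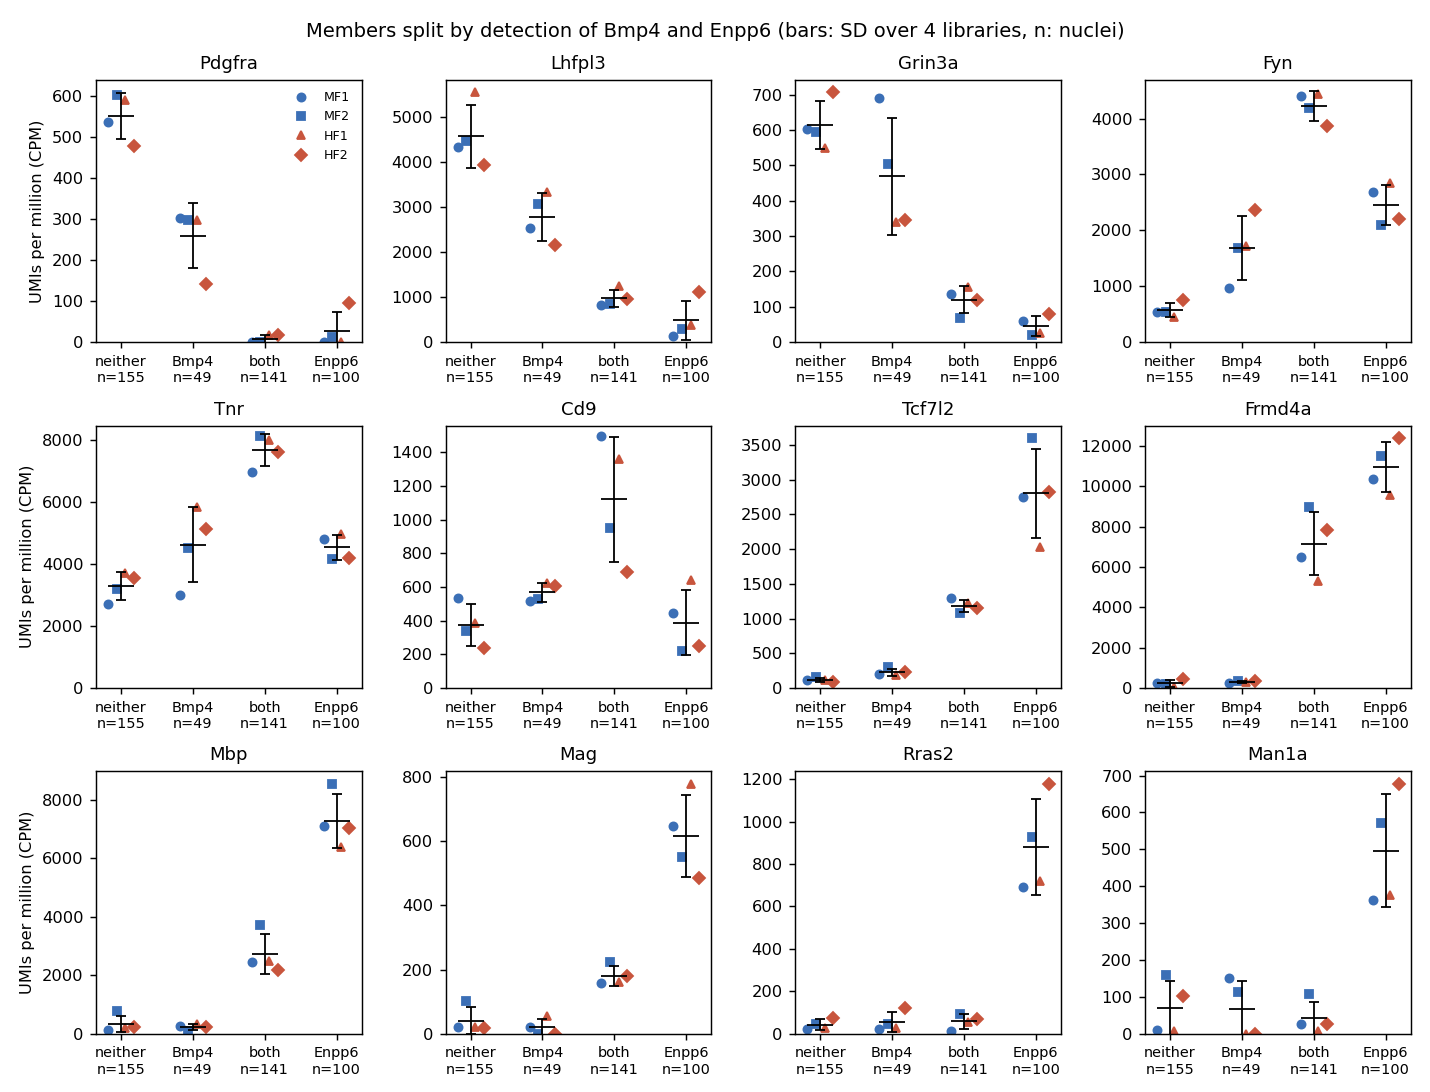
RNA levels in CPM of UMIs (linear axes from 0) of members without Bmp4 and Enpp6 UMIs, with Bmp4 only, with both and with Enpp6 only, with 1 point per library and black bars for the mean and SD over 4 libraries. Fyn and Tnr are highest in the 141 nuclei with both, Pdgfra in the 155 with neither and Rras2 in the 100 with Enpp6 only.

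Accessibility was not used to choose the members, apart from the filter on total ATAC counts, so differences between the sets were tested there. Counts over merged peak regions were summed per library and set and fitted with edgeR's quasi-likelihood test with the library as a block, and a region was called at an FDR (Benjamini-Hochberg adjusted p) under 0.05. Against Pdgfra nuclei 4057 of 51866 regions were more accessible in members (7.82%) and 1380 less (2.66%). Against Mog nuclei 7749 were more accessible (14.9%) and 6612 less (12.7%). With members restricted to those with Bmp4 or Enpp6 the total against Pdgfra nuclei was 8563 regions in place of 5437, and without HF1 it was 3515.

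At Bmp4, both tested regions were more accessible in members than in either neighbour. The promoter region chr14:46390103-46391090, which holds the sequence printed above, had 9.99, 24.8, 26.7 and 28.8 CPM of the ATAC counts in the members of MF1, MF2, HF1 and HF2, against 6.79, 4.78, 6.78 and 8.28 in Pdgfra nuclei and 0, 3.65, 4.03 and 2.71 in Mog nuclei. The members were above both neighbours in 4 of 4 libraries, with log2 differences of 1.72 ± 0.42 (SE, edgeR FDR 0.0026) and 3.06 ± 0.42 (FDR 1.1e-08). Another region annotated to Bmp4 and Gm15222, chr14:46386991-46387912, had means of 18.3, 37.7 and 11.9 CPM and a difference of 1.09 ± 0.27 from Pdgfra nuclei (FDR 0.0031), which was 0.79 with an FDR of 0.088 without HF2. By subset the promoter had 8.83, 18.7, 45.8 and 14.1 CPM in members with neither gene, Bmp4 only, both and Enpp6 only.

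Enpp6 had 5 tested regions. The intronic region chr8:46988176-46989109, 1688 bases from the start, had 33.3, 32.2, 34.1 and 27.2 CPM in members, 0, 1.59, 3.39 and 4.97 in Pdgfra nuclei and 17.6, 15.0, 18 and 16.3 in Mog nuclei. The 3 sets did not overlap, and the difference was 3.68 ± 0.41 from Pdgfra nuclei (edgeR FDR 2.4e-10) and 0.88 ± 0.27 from Mog nuclei (FDR 0.010), the latter lost without HF1. Another intronic region, chr8:47005421-47006300, was also more accessible than in Pdgfra nuclei but less than in Mog nuclei, with means of 2.67, 25.2 and 52.1 CPM and log2 differences of 3.23 and -1.09. The promoter, chr8:46986473-46987401, had means of 0.406, 6.06 and 9.11 CPM and differed from Pdgfra nuclei by 3.69 ± 0.82 (FDR 0.00082), with no call against Mog nuclei (-0.64).

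The other rule genes gave 3 patterns. The Bcas1 promoter, chr2:170406216-170407161, had means of 38.1, 75.5 and 77.4 CPM in Pdgfra nuclei, members and Mog nuclei, rose against Pdgfra nuclei by 1.02 (edgeR FDR 1.4e-06) and had a difference of -0.09 from Mog nuclei. A Bcas1 intron, chr2:170403506-170404437, had 35.8, 65.4 and 18.9 CPM and was above both, by 0.89 and 1.74. The Neu4 promoter, chr1:94019856-94020806, had 59.6, 72.6 and 5.25 CPM, with 0.31 ± 0.17 against Pdgfra nuclei (FDR 0.28) and a rise of 3.74 over Mog nuclei, and the Gpr17 promoter had 128, 139 and 66.3 CPM, with 0.16 (FDR 0.44) and 1.02. The 9630013A20Rik promoter, chr14:84476021-84476971, had 10.8, 25.8 and 11.9 CPM, above both by 1.30 and 1.07. In all, 10 of 26 regions at the rule genes were called more accessible than in Pdgfra nuclei (38.5%, against 7.82% of all regions) and none less, and 13 more and 3 less than in Mog nuclei.

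**Figure D3:**
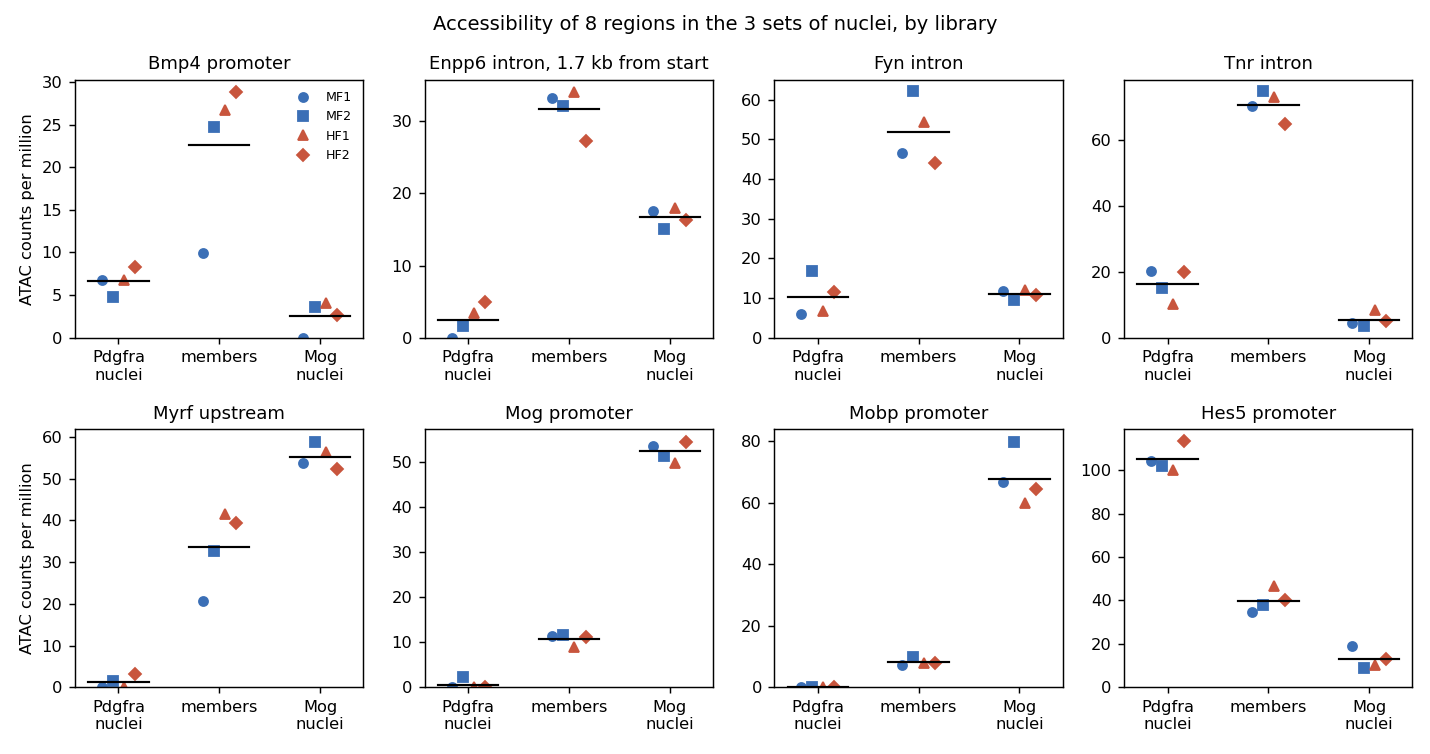
Accessibility of 8 regions in CPM of ATAC counts (linear axes from 0) in Pdgfra nuclei, members and Mog nuclei, with 1 point per library (blue MF, red HF) and a line at the mean. The Tnr intron is at 64.9 to 74.9 in members and at 20.4 or below elsewhere, while the Hes5 promoter falls from 100 or more to 34.6 to 46.5 in members.

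Genes outside the rule had regions most accessible in members too. The Fyn intron chr10:39421546-39422477 had 46.6, 62.2, 54.5 and 44.0 CPM in members, 5.94, 16.7, 6.78 and 11.6 in Pdgfra nuclei and 11.9, 9.57, 12.1 and 10.9 in Mog nuclei. It rose by 2.37 ± 0.28 over Pdgfra nuclei (edgeR FDR 6.8e-10) and by 2.15 ± 0.24 over Mog nuclei (FDR 1.7e-11), and by subset had 16.5, 30.7, 86.7 and 63.5 CPM, highest, as the Fyn RNA was, with both Bmp4 and Enpp6. The Tnr intron chr1:159587741-159588640 had 70.6, 74.9, 73.2 and 64.9 CPM in members, 10.2 to 20.4 in Pdgfra nuclei and 3.65 to 8.33 in Mog nuclei, with differences of 2.14 ± 0.23 (FDR 9.2e-11) and 3.60 ± 0.24 (FDR 5.7e-21). A 9530059O14Rik intron on chromosome 9 had means of 6.18, 72.3 and 22.0 CPM, and an Itpr2 intron 22.1, 42.4 and 6.40. A Tcf7l2 intron, chr19:55756506-55757464, had means of 13.7, 29.8 and 19.7 CPM, a rise of 1.16 over Pdgfra nuclei (FDR 0.0025) and 0.55 against Mog nuclei (FDR 0.082).

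Averaged over all members, regions at myelin genes were partly open, but these means too cover unlike nuclei. The region upstream of Myrf had 6.17, 14.1, 44.1 and 66.1 CPM with neither Bmp4 nor Enpp6, Bmp4 only, both and Enpp6 only. The region upstream of Myrf, chr19:10242715-10243628, had 20.6, 32.7, 41.4 and 39.2 CPM in members, 0, 1.59, 0 and 3.31 in Pdgfra nuclei and 53.7, 58.8, 56.4 and 52.2 in Mog nuclei. It rose by 4.70 ± 0.42 over Pdgfra nuclei (edgeR FDR 4.1e-14) and was below Mog nuclei by -0.79 ± 0.20 (FDR 0.0013), a call lost when members were limited to those with 4 or more rule genes or with Bmp4 or Enpp6. The Mog promoter, chr17:37022933-37023832, had means of 0.598, 10.8 and 52.4 CPM, 4.01 ± 0.60 above Pdgfra nuclei (FDR 5.3e-07) and 2.33 below Mog nuclei, and by subset 2.08, 0, 17.2 and 19.4 CPM. The Mag promoter, chr7:30914465-30915399, had means of 0.621, 15.9 and 48.2 CPM, and the Mobp promoter, chr9:120149057-120150003, 8.32 in members, 67.7 in Mog nuclei and no count in Pdgfra nuclei. At the 129 regions of myelin genes 36 were more accessible than in Pdgfra nuclei (27.9%, against 7.82% of all regions) and none less. Against Mog nuclei 66 were less accessible (51.2%, against 12.7% of all regions) and 6 more.

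Fewer regions were less accessible in members than in Pdgfra nuclei. The Hes5 promoter, chr4:154960382-154961267, had 34.6, 38.0, 46.5 and 40.0 CPM in members, 104, 102, 100 and 113 in Pdgfra nuclei and 9.12 to 19.2 in Mog nuclei. It fell by 1.35 ± 0.16 (edgeR FDR 1.4e-09) against Pdgfra nuclei and was above Mog nuclei by 1.61 ± 0.19, and by subset had 72.9, 37.6, 21.6 and 19.7 CPM. A Cspg4 intron, chr9:56870904-56871914, had means of 47.4, 13.0 and 2.31 CPM and fell by 1.87 (FDR 1.9e-06). At Pdgfra, none of 7 tested regions was called against Pdgfra nuclei and 2 were more accessible than in Mog nuclei, while the log2 ratio of its RNA, which chose the Pdgfra nuclei, was -2.21.

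By gene list, the differentiating genes had 68 of 283 regions more accessible than in Pdgfra nuclei (24.0%) and 7 less (2.47%), against 7.82% and 2.66% of all regions. The gene lists were chosen with earlier results of these data known, so these shares are no independent check. The lineage transcription factors had 27 and 15 of 271 (9.96% and 5.54%) and the BMP genes 15 and 1 of 134 (11.2% and 0.746%). The Wnt genes had 9 and 7 of 138 (6.52% and 5.07%) and the folate genes 10 and 5 of 120 (8.33% and 4.17%). Their shares of more accessible regions were near that of all regions. The progenitor genes had 18 of 251 more and 10 less accessible (7.17% and 3.98%), and 126 more than in Mog nuclei (50.2%, against 14.9% of all regions). The cell cycle genes had none of 78 more and 3 less than in Pdgfra nuclei (3.85%). Regions near the genes higher in RNA than in Pdgfra nuclei were called more accessible in 653 of 3122 cases (20.9%, against 7.82% of all regions).

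**Figure D4:**
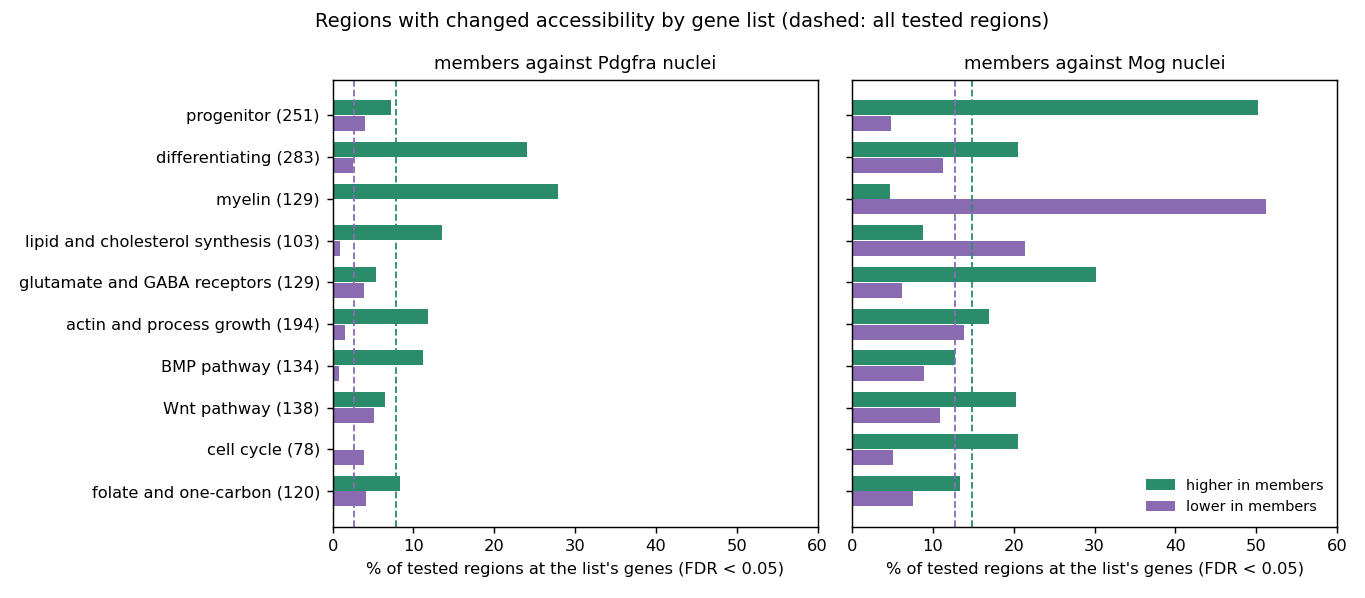
Percent of tested regions called more or less accessible in members at the genes of each list (number of regions in brackets), against Pdgfra nuclei and against Mog nuclei, with dashed lines for all tested regions. Of the 10 lists drawn, which leave out the rule genes and transcription factors, myelin and differentiating genes stand highest against Pdgfra nuclei, at 27.9% and 24.0%, and against Mog nuclei 50.2% of progenitor regions are higher and 51.2% of myelin regions lower.

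The regions with the smallest FDR against Pdgfra nuclei lay in introns and at promoters of genes with known roles in the lineage. A Tns3 intron, chr11:8637790-8638734, had 54.6, 70.1, 92.5 and 68.1 CPM in members and 2.48 to 3.99 in Pdgfra nuclei, with a mean of 51.4 in Mog nuclei, a rise of 4.43 ± 0.27 (edgeR FDR 3.4e-21). Promoters of Tfeb, a lysosomal regulator, and Sirt2, a deacetylase of myelin, had means of 55.2 and 57.3 CPM in members, 3.73 and 4.5 in Pdgfra nuclei and 50.9 and 61.1 in Mog nuclei. Of the regions more accessible than in Pdgfra nuclei 13.6% were promoters and 45.5% intronic, against 32.1% and 32.7% of all tested regions. ACAAAG was present in 37.2% of them and CAGCTG in 39.6%, against 23.1% and 27.1% of all regions and 26.0% and 31.4% of those less accessible. CTTTGA was in 16.3% and CTGGNAC in 26.8%, against 15.6% and 22.9% of all regions and 19.3% and 24.9% of those less accessible. The mean GC content of these sequences was 49.9%, against 54.9% in all regions, and its part in the motif shares was not tested.

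The diets were compared over libraries. Of the retained nuclei of MF1 and MF2, 3.76% (95% exact Clopper-Pearson interval 3.10 to 4.52) and 4.45% (3.63 to 5.38) were members, and of those of HF1 and HF2 4.18% (3.53 to 4.89) and 3.14% (2.54 to 3.84). These intervals cover counting error only. The mean was 4.10 ± 0.485% in MF and 3.66 ± 0.731% in HF (SD, n = 2 each), a difference of -0.445 points with an exact two-sided permutation p of 0.667, where 2 against 2 libraries cannot go below 0.333. As a share of members plus Pdgfra and Mog nuclei, they were 28.9%, 35.0%, 29.2% and 23.8%, a difference of -5.44 points (exact permutation p = 0.667, adjusted over both shares 0.667). Mog nuclei in that denominator were 46.2% and 40.6% of lineage nuclei in MF1 and MF2 and 52.3% and 55.0% in HF1 and HF2, and their part in the difference was not tested. The diets overlapped in both shares, and the first difference was 0.185 points in the other direction after thinning to 2000 UMIs and 0.0719 without HF2.

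Within members, edgeR's quasi-likelihood test on summed UMIs called 3 of 7646 genes between diets (0.0392%), all lower in HF, and all 3 haemoglobin genes. Hbb-bs had 425, 801, 110 and 83 UMIs in MF1, MF2, HF1 and HF2, and fell by 2.77 ± 0.354 on the log2 scale (edgeR FDR 0.0282). Hba-a1 had 196, 279, 43 and 39 UMIs and fell by 2.61 ± 0.326 (FDR 0.0282). Hbb-bt fell by 2.48 ± 0.344 (FDR 0.0403), and Hba-a2 and Cntn3, next by p, had FDRs of 0.0904 and 0.999. Of the 1484 haemoglobin UMIs in MF2, 1 nucleus held 1295, with a doublet score of 0.113. Without it no gene was called (96 at an unadjusted p under 0.05). In MF1 the 877 UMIs were spread over its 109 members, with a median of 7 per nucleus against 2 in MF2, 1 in HF1 and 2 in HF2, and without the highest nucleus of each these 3 libraries had 189, 219 and 174 UMIs. The erythroid genes of all retained nuclei also stood highest in MF1, at 1888 CPM against 322, 563 and 265. Pdgfra nuclei of MF1 had 3764 Hbb-bs UMIs, of which 1 nucleus held 2494.

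The 7 rule genes chose the members, so their levels between diets are given with no test. The HF and MF libraries overlapped for each of them, and no log2 difference exceeded 0.251 in size. No gene of the progenitor, differentiating, myelin, transcription factor, BMP, Wnt, lipid, receptor, actin, cell cycle or folate lists was called (smallest edgeR FDR 0.999). The medians of these lists lay between -0.06 (Wnt) and 0.22 (cell cycle, 5 tested genes), and 2 of 15 folate genes had both HF libraries above both MF libraries and 3 below, where 11% and 13.9% of all tested genes did. Of all tested genes 103 had an unadjusted p under 0.05.

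Of 37071 regions tested in members, 1 was called between diets (0.0027%), chr1:176814010-176815011 at the promoters of Cep170 and Sdccag8. It had 92.5, 39.5, 155 and 137 CPM in MF1, MF2, HF1 and HF2, a rise of 1.17 ± 0.211 (edgeR FDR 0.0423). The same order was seen in Pdgfra nuclei, with 115, 52.6, 140 and 133 CPM, and in Mog nuclei, with 92.1, 42.9, 125 and 109, and MF2 was the lowest library in each. The call was lost with DESeq2, without doublets and without MF2.
A test of whether the diet difference itself differed between members and Pdgfra nuclei called 1 of 7801 genes (0.0128%), Il1rapl2, a synaptic adhesion gene, whose values are given in the closing section.

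**Figure D5:**
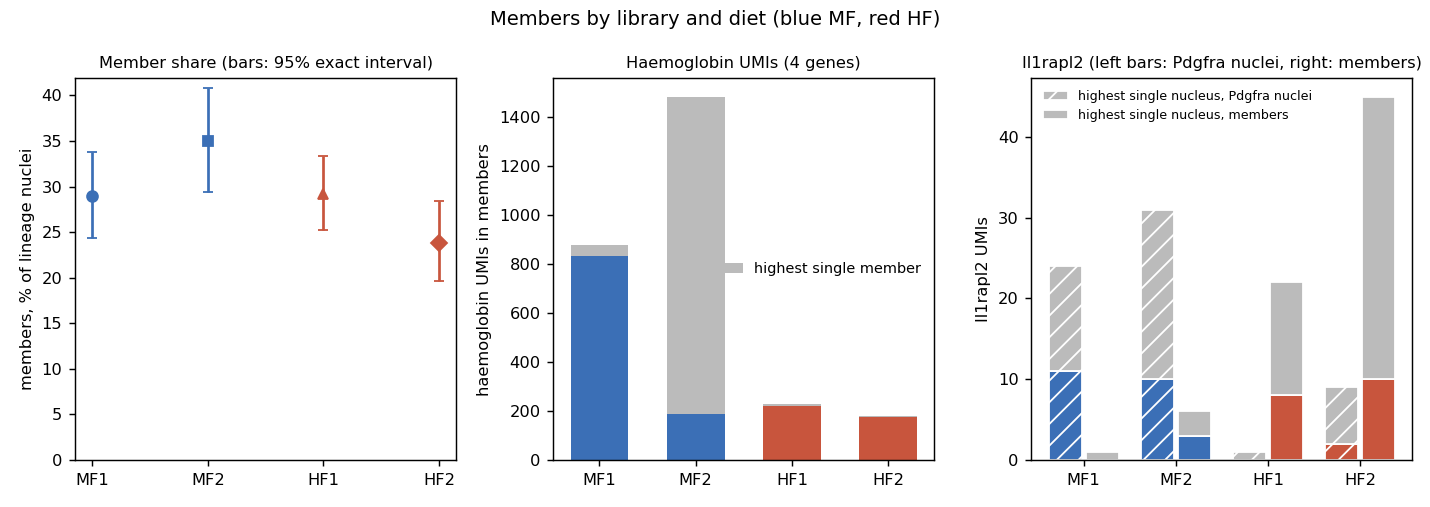
Members by library, with MF in blue and HF in red. The left panel gives their share of lineage nuclei in percent with 95% exact intervals, 23.8% to 35.0%, the middle panel their haemoglobin UMIs, and the right panel Il1rapl2 UMIs in Pdgfra nuclei (left bars) and members (right bars). Grey marks the nucleus with the most UMIs, which holds 1295 of the 1484 haemoglobin UMIs of MF2.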

How the data were processed

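Single-nucleus RNA and ATAC libraries of 4 hippocampal samples, 2 per diet, were made by the authors with the 10x Genomics multiome kit. The deposited counts are UMIs per gene and ATAC counts per peak for each nucleus, which the authors made per library with Cell Ranger ARC 2.0.1 on mm10, and the submitters' processing notes also name Seurat. Whether intronic reads were counted is not given in the sources used here, and peaks were called by the authors in each library. Deposited values were taken as they stood, and every value column belonged to a sample.

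A nucleus was retained if it had between 500 and 7000 genes, if mitochondrial transcripts made up less than 2% of its UMIs, and if its ATAC counts lay between 1000 and 70000, which kept 11518 of 14297. The study's filters on nucleosome signal and TSS enrichment were not used here. Members and comparison nuclei were chosen as the report states. The members and the gene lists were chosen with earlier results of these data known. Named were the 7 rule genes, members of the lists, the 20 genes with the largest log2 ratio in each direction per stage comparison (50 or more UMIs in the higher set, same direction in 4 of 4 libraries, rule and exclusion genes left out), the called diet genes and regions or the 5 with the smallest p, and regions at listed genes or among the 10 with the smallest FDR. A gene was described between sets with at least 50 UMIs in the higher set.

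UMIs and ATAC counts were summed per library and set. Peaks of the 4 libraries were merged where they overlapped into 253686 regions, of which 154762 held a peak in every library and were used. Regions were annotated with GENCODE and RefSeq gene models of GRCm38.p6, and a region belonged to a gene within its body or 10 kb of it. Summed counts were fitted with edgeR 4.0.16 (limma 3.58.1, R 4.3.3) by TMM, filterByExpr, glmQLFit and glmQLFTest, with Benjamini-Hochberg adjustment (FDR), and diet genes also needed a 1.2-fold change, as in the study's methods. The study's test over single nuclei was not used, since nuclei of a library are not replicates. DESeq2 1.42.0 was an alternative. The fits were tested on simulated data. Nuclei in 12 sums, 3 sets by 4 libraries, entered the fits between sets with the library as a block. Scrublet (scanpy 1.11.5) gave each nucleus a doublet score, with 0.03 as the expected doublet rate, and no nucleus was removed for its score in the results given. Shares were compared with an exact permutation test in scipy 1.17.1. Python 3.11.15, numpy 2.4.6, pandas 2.3.3 and matplotlib 3.10.9 were used. The depth of the members, 448408 to 641742 UMIs per library, limits low genes: a gene at 5 CPM has few UMIs per library.

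Alternatives were other thresholds of the rule, thinning to 2000 UMIs, other normalizations and filters, leaving out doublets, each library in turn and a replicate block. Chosen after seeing the data were leaving out fibroblast-marked Pdgfra nuclei, leaving out nuclei with over 100 haemoglobin UMIs and limiting members to those with Bmp4 or Enpp6. Some genes are not reported here.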

Additional observations from a re-analysis of the deposited data

Results flagged for a closer look

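The diet difference of Il1rapl2, an X-linked gene of the interleukin-1 receptor accessory family with a role at synapses, differed between members and Pdgfra nuclei by 5.71 ± 0.67 on the log2 scale (SE, edgeR interaction test, FDR 0.00115). Members held 1 and 6 UMIs in the MF libraries and 22 and 45 in the HF libraries, and Pdgfra nuclei 24, 31, 1 and 9, so that the sets moved in opposite directions between diets. Few nuclei carried these UMIs. In members a single nucleus held 14 of the 22 UMIs of HF1 and another 35 of the 45 of HF2, and in Pdgfra nuclei the highest nucleus held 13 of 24 in MF1 and 21 of 31 in MF2. Without MF1 the FDR was 0.309. Mog nuclei held 4, 48, 164 and 74 UMIs. Neither set's own diet difference was called by edgeR, with FDRs of 0.999 in members and 0.321 in Pdgfra nuclei.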

How the results depend on the processing

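The member share of retained nuclei, lower in HF by 0.445 points, was 0.0719 points higher without HF2 and 0.185 points higher after thinning to 2000 UMIs. Leaving out each library gave -0.962 to 0.0719 points for it and -8.47 to -2.41 for the share of lineage nuclei, which kept its direction under all alternatives run and was -1.64 (exact permutation p of 1) after thinning. The 3 diet genes became 11 with no filter on low counts (6 higher and 5 lower in HF, where the 3 were all lower) and 0 without doublets, without nuclei of over 100 haemoglobin UMIs or with members limited to those with Bmp4 or Enpp6, and 6 to 24 when each library was left out (24 without HF1, 19 higher and 5 lower). The 1 diet region became 2 with no filter and 0 with DESeq2, at least 2 of 7 rule genes, doublets left out or members with Bmp4 or Enpp6, and 1 to 10 over the libraries left out. The 5437 regions against Pdgfra nuclei became 8563 for members with Bmp4 or Enpp6 and 3515 to 4079 without 1 library, the fewest without HF1. The count against Mog nuclei stayed within 1.5 times of 14361 under every alternative run. The diet-by-stage count was 0 to 9 without 1 library. In edgeR with the replicate number as a block, 5 diet genes and 4 diet regions were called. The labels do not say that a number marks a shared litter or batch, and same-numbered libraries correlated at 0.165 in their deviations over 8138 genes in 2 pairs, so the pairing is not established. Without the library block, 5291 and 13458 regions were called against Pdgfra and Mog nuclei. Of 82 values of summary results under alternatives 57 stayed the same, 23 moved and 2 reversed. Here a share stayed the same if its difference kept its sign, and a count of calls if it stayed within 1.5 times of the main count. For named diet genes, diet regions and regions between sets, 283 values lost the call, 3191 kept it and none changed direction. Of named genes described between sets only Apod (0.048) and Colec12 (1.04) turned direction, both without fibroblast-marked Pdgfra nuclei, while 492 values moved by more than the spread and 1989 did not. With 2 libraries per diet the smallest permutation p is 0.333. Genes with under 50 UMIs in the higher set were left out of the counts of described genes, though levels of some are given.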
